A study of Mus musculus with 8 samples.

Results

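Heme breakdown and the oxidative defence driven by NRF2 were followed through 10 genes in hematopoietic stem cells (HSCs) of mice with hemolytic anemia. The genes were chosen by name, as the enzymes that take heme apart (Hmox1, Blvra, Blvrb), the classical NRF2 target enzymes (Nqo1, Gclm, Gclc, Txnrd1, Srxn1), the transcription factor itself (Nfe2l2, which encodes NRF2) and its inhibitor (Keap1). All 10 were among the 15142 genes listed in all 3 deposited tables, and all 10 passed the filter on low values that left 11347 genes to test.

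The series held 8 RNA-seq libraries of HSCs sorted from wild-type (WT) C57BL/6 mice, in 3 groups. Phenylhydrazine (PHZ) destroys red blood cells and so floods the body with free hemoglobin and heme. The control group was bone marrow HSCs of mice without PHZ (control BM HSC, 3 libraries), whose labels give PBS as the treatment while the study text calls them untreated, so it is not settled whether the controls were injected. The treated mice received 60 mg/kg of PHZ by intraperitoneal injection on each of 2 days in a row, and HSCs were taken at day 3 after the last injection 3 libraries being of marrow cells (PHZ BM HSC) and 2 of spleen cells (PHZ SP HSC). HSCs of an untreated spleen were not analysed here, so PHZ and organ cannot be told apart in the spleen group. The table columns call the marrow libraries WBM where the sample titles say BM HSC. All 16 genes of a list of HSC markers (Kit, Slamf1, Procr, Hlf and others) were detected in every library. The study counts its replicates elsewhere as independent animals but gives no number for the RNA-seq, and the labels tie no library to an animal, so the p-values measure only the spread between these libraries, which may be technical. In RNA from pooled cells, fewer cells of a type and less RNA per cell cannot be told apart.

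The libraries held 8216626 to 13201359 reads worked back from the deposited values, of which the ribosomal RNA precursor Rn45s took 43.3% to 48.6%. The libraries PHZ BM HSC 1 and 2 were closest to each other over the tested genes (Pearson r = 0.976 of log2 values), and PHZ BM HSC 3 stood at 0.958 with each of them. Control BM HSC 1 stood further from its own group, at 0.903 and 0.914, with 10.97% of genes at least 2-fold away from the other controls on the log2(FPKM + 1) scale, where PHZ BM HSC 3 had 3.11% away from the other PHZ BM libraries. Summed neutrophil markers (12 genes, mostly S100a8, S100a9 and Prtn3) came to 1115 FPKM in PHZ BM HSC 3 against 526 and 550 FPKM in the other PHZ BM libraries, 448 to 763 FPKM in the controls, and 1474 and 1909 FPKM in the spleen. Summed erythroid markers came to 599 to 778 FPKM in the marrow libraries and to 1538 and 1674 FPKM in the spleen libraries. Levels here are FPKM, fragments for each kilobase of the gene after scaling for depth, so they can be compared between genes as well as between libraries. Differences are log2 fold changes of FPKM + 1 from limma, a linear model fitted across all tested genes, and a gene was called when its Benjamini-Hochberg adjusted p was below 0.05.

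Heme oxygenase opens the heme ring and releases iron, carbon monoxide and biliverdin, and biliverdin reductases turn biliverdin into bilirubin, an antioxidant. NRF2 is held in the cytoplasm and marked for degradation by KEAP1, and escapes when oxidants or electrophiles modify KEAP1. It then binds antioxidant response elements with small MAF proteins and turns on enzymes that make glutathione and reduce quinones, thioredoxin and peroxiredoxins. Hmox1 is in addition repressed by BACH1, which leaves DNA when it binds heme.

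The promoters are shown because NRF2 reads a short motif, the antioxidant response element, and because NRF2's own gene was the member called between groups. RefSeq promoter windows (build GRCm38.p6, 250 bases before to 50 after a start) were matched for 8 of the 10 genes, as 11 windows of 300 bases, and not for Hmox1 and Gclc. The core of the element was searched as TGACNNNGC on both strands and the AP-1 site, bound by FOS and JUN proteins, as TGANTCA. The motifs can overlap where TGACTCA runs on into GC. The 250 bases upstream of the start of Nfe2l2 (chr2:75704664-75704913, minus strand), of the glutathione gene Gclm (chr3:122245307-122245556, plus strand) and of Srxn1 (chr2:152105274-152105523, plus strand) are printed 5′ to 3′ along the gene's strand, with matches to either motif in capitals.
Nfe2l2: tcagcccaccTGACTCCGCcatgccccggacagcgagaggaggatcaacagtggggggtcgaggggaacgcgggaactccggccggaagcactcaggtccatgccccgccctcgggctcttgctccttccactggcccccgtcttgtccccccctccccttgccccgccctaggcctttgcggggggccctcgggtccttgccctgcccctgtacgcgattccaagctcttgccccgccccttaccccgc
Gclm: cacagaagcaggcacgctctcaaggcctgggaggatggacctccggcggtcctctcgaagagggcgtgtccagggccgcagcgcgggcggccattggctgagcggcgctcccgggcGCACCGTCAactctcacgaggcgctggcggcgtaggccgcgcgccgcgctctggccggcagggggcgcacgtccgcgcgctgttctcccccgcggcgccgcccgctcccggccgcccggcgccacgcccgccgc
Srxn1: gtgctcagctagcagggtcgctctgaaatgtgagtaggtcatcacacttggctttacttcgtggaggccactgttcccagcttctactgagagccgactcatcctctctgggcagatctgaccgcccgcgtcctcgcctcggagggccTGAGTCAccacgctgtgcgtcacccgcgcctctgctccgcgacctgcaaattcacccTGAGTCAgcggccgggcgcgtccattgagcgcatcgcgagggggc
The capitals in Nfe2l2 are a core whose first base is at position -240 from the start, and those in Gclm are a core on the opposite strand at -134. In Srxn1 both capital runs are AP-1 sites, at -102 and -45, and its core match lay at position 28 after the start, outside the bases shown. The run at -45, followed by gc, differs from the searched core only in the letter after TGA and was not counted as a core. Blvra and a window of Txnrd1 also held a core, which made 5 of the 8 genes matched, beside 13.99% of 27025 genes with a window in the table. The AP-1 site was found in Srxn1 and in none of the other 7 genes, beside 8.973% of all genes with a window. No core was found in the windows of Nqo1, Blvrb and Keap1. A match is a string of letters and not a binding site, and sites outside these windows were not searched.

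The heme-breakdown enzymes are led by Hmox1, the inducible heme oxygenase (gene at chr8:75093618-75100593, mm10). Its level was 1.81, 5.68 and 10.4 FPKM in control BM HSC 1 to 3. It was 3.16, 4.19 and 63.1 FPKM in PHZ BM HSC 1 to 3, and 7.25 and 5.76 FPKM in PHZ SP HSC 1 and 2. A single PHZ marrow library therefore stood far above all others, and the remaining 7 libraries overlapped between groups. In reads, the high value rested on 1428 reads, against 58 and 69 in the other PHZ BM libraries and 31 to 235 in the controls. Hmox1 had by far the widest range of the 10 genes, 34.8-fold from the lowest to the highest library, where the others spanned 1.67-fold (Blvrb) to 5.47-fold (Nqo1 and Gclc). Its log2 fold change in PHZ BM HSC against control BM HSC was 0.90 ± 0.85 (SE, n = 3 and 3), with limma adjusted p = 0.647. Without PHZ BM HSC 3 that difference was -0.37 (limma adjusted p = 0.787). For the spleen group against control it was 0.32 ± 0.96 (limma adjusted p = 0.910). No difference in Hmox1 between groups was detectable beside this spread between libraries.

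Blvra, biliverdin reductase A (chr2:127070629-127097084), measured 7.57, 12.0 and 15.5 FPKM in the controls, 10.2, 7.31 and 10.3 FPKM in PHZ BM HSC, and 12.4 and 10.1 FPKM in PHZ SP HSC. All 3 groups overlapped, and the log2 fold change was -0.27 ± 0.26 in PHZ marrow and -0.01 ± 0.29 in PHZ spleen against control. Blvrb encodes biliverdin reductase B, a flavin reductase abundant in red cells, and lies at chr7:27447978-27465981. It was the most abundant of the 10 genes in 7 of the 8 libraries, the exception being PHZ BM HSC 3, where Hmox1 exceeded it. Its level was 30.7, 26.8 and 27.3 FPKM in the controls, 28.8, 33.1 and 31.5 FPKM in PHZ BM HSC, and 44.8 and 30.0 FPKM in PHZ SP HSC. The library with the highest value was PHZ SP HSC 1, while the other spleen library lay within the control range (log2 fold change 0.37 ± 0.20, limma adjusted p = 0.396). Summed erythroid markers were high in both spleen libraries, and single members differed between the libraries in either direction. Car1 was 80.5 FPKM in PHZ SP HSC 1 and 16.2 FPKM in PHZ SP HSC 2, while Hbb-bt was 579 and 731 FPKM. The part of erythroid cells in the Blvrb values was not tested. Blvra overlaps a pseudogene on the genome, and Gclm and Txnrd1 overlap other genes too. Since the handling of strand is not stated, reads of these pairs may be shared.

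**Figure D1:**
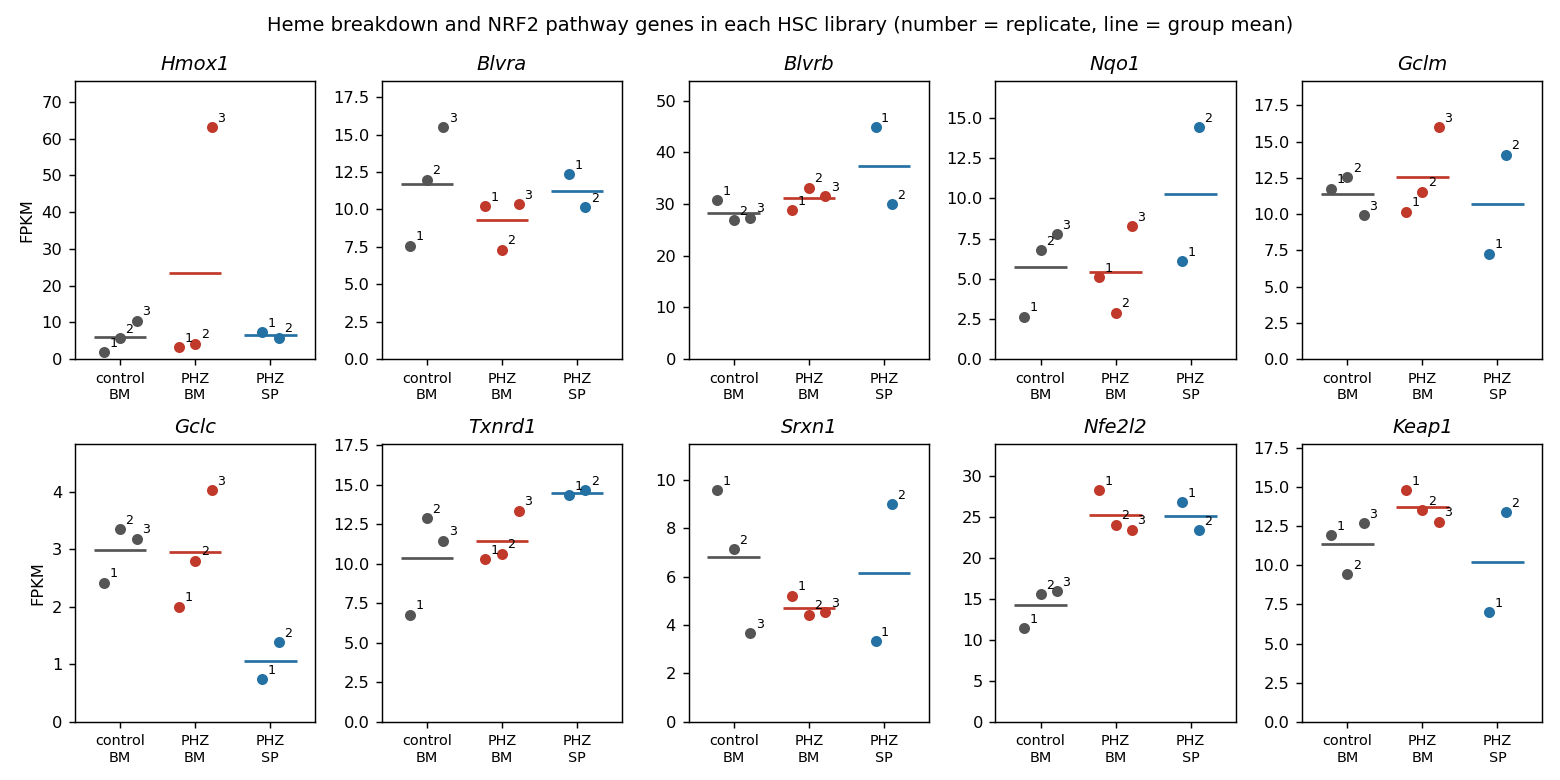
Level of each of the 10 genes in FPKM (linear vertical axes from 0, a scale per gene) in control BM HSC, PHZ BM HSC and PHZ SP HSC, with a numbered point per library and a line at the group mean. Hmox1 reached 63.1 FPKM in PHZ BM HSC 3 and at most 10.4 FPKM in the other 7 libraries, while the Nfe2l2 points of both PHZ groups lay above all control points.

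Among the NRF2 targets, Nqo1 reduces quinones by 2 electrons at once and is a classical readout of NRF2 activity (chr8:107388225-107403205). Its level was 2.63, 6.77 and 7.76 FPKM in the controls, 5.10, 2.88 and 8.27 FPKM in PHZ BM HSC, and 6.10 and 14.4 FPKM in PHZ SP HSC. PHZ SP HSC 2 was the highest library and the other spleen library lay within the range of the controls. The log2 fold change was -0.06 ± 0.42 in PHZ marrow and 0.74 ± 0.47 in PHZ spleen against control (limma adjusted p = 0.962 and 0.482). The spleen value depended on single libraries, being 0.18 without PHZ SP HSC 2, 1.30 without PHZ SP HSC 1 and 0.34 without control BM HSC 1.

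Gclc and Gclm encode the catalytic and the modifier subunit of glutamate-cysteine ligase, the rate-limiting enzyme of glutathione synthesis. Gclc (chr9:77754535-77794489) was the lowest of the 10 genes in 7 of the 8 libraries, the exception being control BM HSC 1, where Hmox1 was lower. It measured 2.42, 3.35 and 3.18 FPKM in the controls and 2.0, 2.80 and 4.03 FPKM in PHZ BM HSC, but 0.736 and 1.38 FPKM in PHZ SP HSC, on 31 and 54 reads. Both spleen libraries were below every marrow library. The mean was 1.06 ± 0.454 FPKM (SD, n = 2) in the spleen, 2.98 ± 0.496 FPKM (n = 3) in the controls and 2.94 ± 1.02 FPKM (n = 3) in PHZ BM HSC. The difference did not pass the test across all genes, with a log2 fold change of -0.96 ± 0.31 against control (limma adjusted p = 0.162, unadjusted p = 0.00919) and -0.92 ± 0.31 against PHZ BM HSC (limma adjusted p = 0.211, unadjusted p = 0.0116). At these low levels the size depended on the scale, and the value against control was -1.46 with a pseudocount of 0.1 FPKM, -0.40 with 5 FPKM and -1.56 by voom on the reads, none of them called. Gclm (chr3:122245487-122267215), the partner subunit, gave 11.8, 12.6 and 9.94 FPKM in the controls, 10.2, 11.6 and 16.0 FPKM in PHZ BM HSC, and 7.26 and 14.1 FPKM in PHZ SP HSC. The 2 spleen libraries lay on opposite sides of the control values, so Gclm did not show the pattern of Gclc (log2 fold change -0.15 ± 0.29, limma adjusted p = 0.850).

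Txnrd1, thioredoxin reductase 1 (chr10:82833951-82897724), measured 6.77, 12.9 and 11.5 FPKM in the controls, 10.3, 10.6 and 13.3 FPKM in PHZ BM HSC, and 14.3 and 14.7 FPKM in PHZ SP HSC. Both spleen libraries were above every marrow library, with a log2 fold change of 0.49 ± 0.27 against control (limma adjusted p = 0.399). Srxn1 encodes sulfiredoxin, which repairs overoxidized peroxiredoxins, and lies at chr2:152105524-152111376. Its level was 9.58, 7.14 and 3.67 FPKM in the controls, 5.21, 4.42 and 4.53 FPKM in PHZ BM HSC, and 3.33 and 9.0 FPKM in PHZ SP HSC. The PHZ BM values fell inside the control range (log2 fold change -0.37 ± 0.35, limma adjusted p = 0.647). Fos, Jun and Junb, whose proteins bind the kind of site printed above for Srxn1, were called higher in the same libraries, at 151, 113 and 141 FPKM in PHZ BM HSC against 2.04, 9.20 and 15.4 FPKM in control BM HSC (group means). The part of these factors in the Srxn1 values was not tested.

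Nfe2l2 was the member that rose. NRF2's gene (chr2:75675513-75704663) stood at 11.5, 15.6 and 16.0 FPKM in the controls, at 28.3, 24.1 and 23.5 FPKM in PHZ BM HSC and at 26.8 and 23.4 FPKM in PHZ SP HSC. Every PHZ library of either organ was above every control library. The means were 14.3 ± 2.49 FPKM (SD, n = 3) in the controls, 25.3 ± 2.63 FPKM (n = 3) in PHZ marrow and 25.1 ± 2.40 FPKM (n = 2) in PHZ spleen. The log2 fold change was 0.79 ± 0.18 in PHZ BM HSC against control (limma adjusted p = 0.0454), a ratio of means of 1.77. For the spleen against control it was 0.78 ± 0.20 and did not pass (limma adjusted p = 0.0995), and between the PHZ groups it was -0.01 ± 0.20 (limma adjusted p = 0.994). The marrow call sat close to the threshold and was lost when any of the 8 libraries was left out, with limma adjusted p from 0.0630 to 0.213 and log2 fold changes from 0.65 to 0.87. Summed immediate early genes (Fos, Jun, Egr1 and others of a list of 16), which respond within minutes to stimulation or to handling of cells, came to 157 to 209 FPKM in the controls, 1060 to 1216 FPKM in PHZ BM HSC and 369 and 383 FPKM in PHZ SP HSC. Their part in the Nfe2l2 difference was not tested.

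Keap1, the adaptor that delivers NRF2 for degradation (chr9:21229730-21239332), measured 11.9, 9.45 and 12.7 FPKM in the controls, 14.8, 13.5 and 12.8 FPKM in PHZ BM HSC, and 6.99 and 13.4 FPKM in PHZ SP HSC. The PHZ BM libraries were all above the controls, the closest pair being 12.8 and 12.7 FPKM, with a log2 fold change of 0.26 ± 0.24 (limma adjusted p = 0.633). The spleen libraries lay on either side of the control values.

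**Figure D2:**
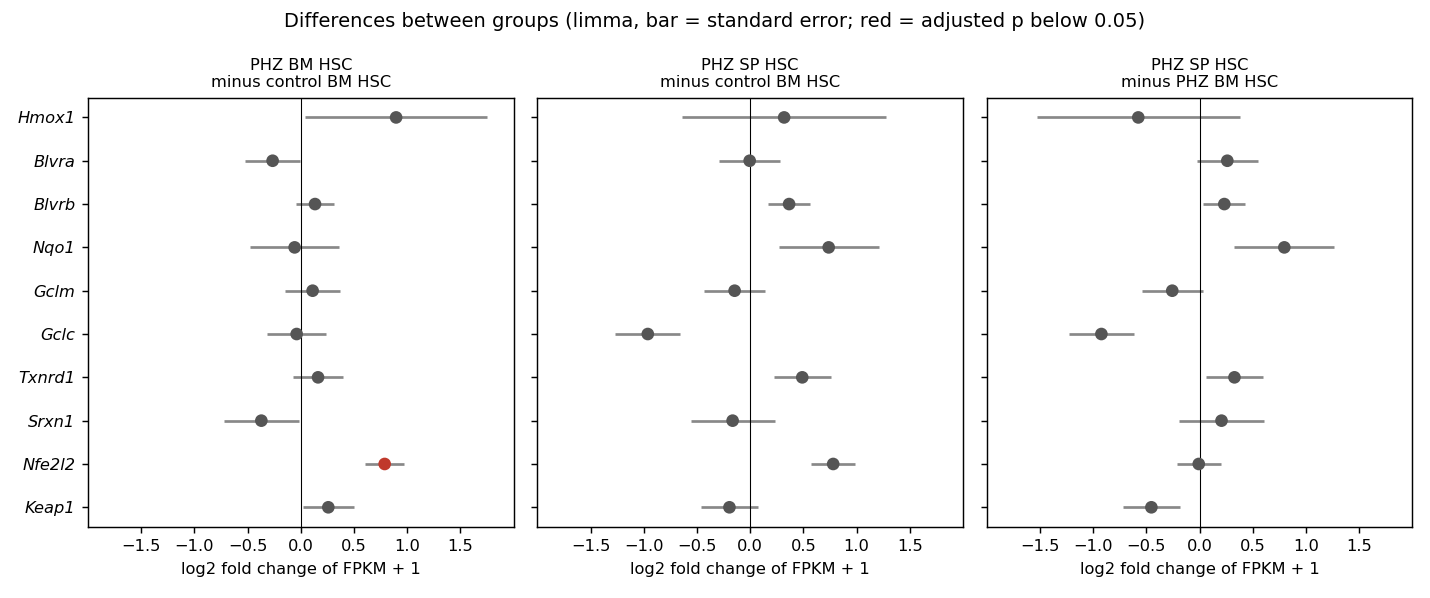
Log2 fold change of FPKM + 1 for each of the 10 genes (horizontal axis, a panel per comparison), with a bar of 1 standard error from limma to each side and adjusted p below 0.05 in red. Nfe2l2 in PHZ BM HSC against control BM HSC (0.79 ± 0.18) is the red point, and Hmox1 has the longest bars.

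Counted together, 1 of the 10 genes was called in PHZ BM HSC against control BM HSC, beside 2.74% of all 11347 genes tested. For PHZ SP HSC against control, 0 of the 10 were called by limma, beside 0.758% of all genes, and 2 (Gclc and Nfe2l2) had an unadjusted p below 0.05. Between the PHZ groups, 0 of the 10 were called by limma, beside 0.978% of all genes, and 1 (Gclc) had an unadjusted p below 0.05. Of all genes tested, 16.6%, 15.8% and 13.5% had an unadjusted p below 0.05 in these comparisons, so 1, 2 and 1 of 10 were near the share of all genes. Groups that did not overlap were found for 2 of the 10 genes in PHZ BM HSC against control (Nfe2l2 and Keap1, both higher), beside 23.9% of all genes. With the spleen group against control they were found for 3 (Nfe2l2 and Txnrd1 higher, Gclc lower), beside 28.9% of all genes. Between the PHZ groups they were found for 2 (Txnrd1 higher and Gclc lower in spleen), beside 34.8% of all genes. The shares of genes whose groups did not overlap were near those of all genes, and the 10 genes did not stand apart by that count. The median log2 fold change of the 10 genes was 0.12, 0.16 and 0.10 in the 3 comparisons in that order, beside 0.01, -0.001 and -0.02 over all genes. The comparisons share groups of libraries and are not independent of each other.

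The library with high Hmox1 was then set against the other 2 of its group, gene by gene, as a description without a test, since it was singled out for its Hmox1 level. On the log2(FPKM + 1) scale Hmox1 was 3.79 above the midpoint of PHZ BM HSC 1 and 2, which ranked 2 of 11347 genes. Nqo1 was 0.93 above it, higher than 97.8% of all genes. The glutathione genes Gclc and Gclm followed, at 0.57 and 0.52, higher than 92.2% and 90.2% of all genes. Txnrd1 stood at 0.32 and Blvra at 0.23, higher than 79.6% and 72.3% of genes. The remaining 4 genes did not share it, with Blvrb at 0.03, Srxn1 at -0.07, Keap1 at -0.14 and Nfe2l2 at -0.15. Leaving out Hmox1, which singled the library out, 5 of the other 9 genes had their highest PHZ BM value in it, beside 39.8% of all genes. NRF2's own gene was at its lowest PHZ BM value there. The sum over the 9 genes without Hmox1, a choice made after seeing the data, was 124 FPKM in PHZ BM HSC 3, 115 and 110 FPKM in the other PHZ BM libraries, and 123 and 130 FPKM in the spleen. Nqo1 reached 14.4 FPKM in PHZ SP HSC 2, where Hmox1 was 5.76 FPKM, so high Nqo1 was also seen without high Hmox1.

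**Figure D3:**
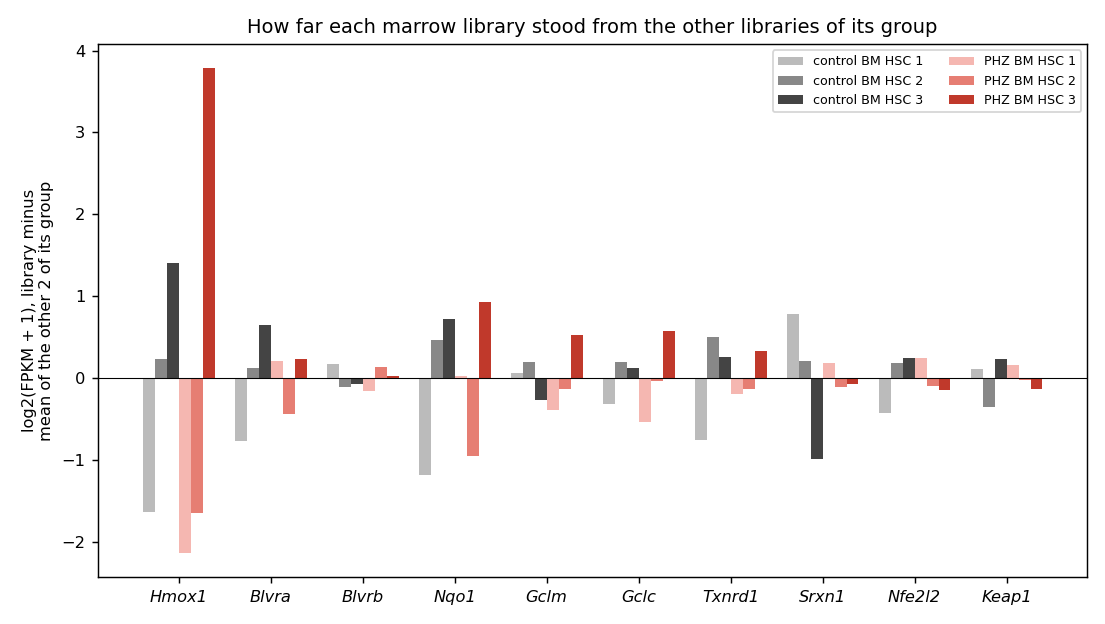
Distance of each bone marrow library from the mean of the other 2 libraries of its group, in log2(FPKM + 1), for each of the 10 genes, with bars in greys for control BM HSC and in reds for PHZ BM HSC. The dark red bar of PHZ BM HSC 3 reaches 3.79 for Hmox1 and 0.93 for Nqo1 and lies at or below 0.03 for Blvrb, Srxn1, Nfe2l2 and Keap1.

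The control libraries varied as well. In control BM HSC 3 Hmox1 lay 1.40 above the other controls, higher than 99.2% of all genes by that measure, and in control BM HSC 1 it lay 1.64 below them (-1.64). Control BM HSC 1 was also low for Nqo1 (-1.18), and it was the lowest control for 6 of the 10 genes (Hmox1, Blvra, Nqo1, Gclc, Txnrd1 and Nfe2l2). Without it the Nfe2l2 log2 fold change in PHZ BM HSC was 0.65 (limma adjusted p = 0.112). Hmox1 and Nqo1 thus varied between libraries of a group with and without PHZ.

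Across the 8 libraries, with no test, the genes most like Hmox1 by Pearson r of log2 values were Clec4d, a C-type lectin of myeloid cells (0.951), Hspa5, the endoplasmic reticulum chaperone BiP (0.936), P4hb, a protein disulfide isomerase (0.935), Manf, secreted under endoplasmic reticulum stress (0.931), Eno1, a glycolytic enzyme (0.925), Eif4a1, a translation helicase (0.920), Ftsj3, a ribosomal RNA processing factor (0.920), and Ndufa8, a subunit of respiratory complex I (0.913). Hspa5 was 107 FPKM in PHZ BM HSC 3 and 31.1 to 52.8 FPKM elsewhere. All 8 points share the library with very high Hmox1, and without it the correlations of these genes ran from 0.636 (Manf) to 0.866 (Eif4a1). Over all 8 libraries the other 9 genes of the set had lower r. Txnrd1 stood highest at 0.552, followed by Nqo1 (0.495), Gclm (0.401), Gclc (0.394), Blvra (0.369), Nfe2l2 (0.261), Blvrb (0.056), Keap1 (-0.016) and Srxn1 (-0.437). Without PHZ BM HSC 3 they were 0.839 for Blvra, 0.769 for Txnrd1 and 0.646 for Nqo1, within the range of the 8 genes above, 0.216 for Nfe2l2, 0.0864 for Blvrb, -0.0845 for Gclc, -0.309 for Gclm, -0.335 for Keap1 and -0.594 for Srxn1.

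Macrophages of marrow and spleen, which clear red cells, express Hmox1 strongly, so their markers were read beside it. Of 18 macrophage markers 16 were listed and 13 were above 0 in PHZ BM HSC 3, and they did not move as a block. Cd68 was higher there (16.7 FPKM) than in the other marrow libraries (0 to 9.74 FPKM), and higher still in the spleen (34.4 and 57.6 FPKM). Adgre1 (F4/80) was at its highest of all 8 libraries, at 0.287 FPKM against 0 to 0.197 FPKM. Csf1r was 0.549 FPKM, against 0.0330 and 0.0184 FPKM in the other PHZ BM libraries and 0.567 FPKM in control BM HSC 1. C1qc, Slc40a1, Mrc1 and Siglec1 had their highest PHZ BM values there, at 1.44, 1.13, 0.121 and 0.0541 FPKM. C1qb, Axl and Vcam1 lay within the range of the group, and Mertk was at its lowest PHZ BM value. The red pulp macrophage factor Spic stood at 1.15 FPKM, within its range of 0 to 5.33 FPKM. C1qa, Cd5l and Marco were at 0, as Marco was in every marrow library and C1qa and Cd5l in some others. Spic and C1qa were highest in control BM HSC 1, where Hmox1 was lowest. Cd68, Adgre1, Mrc1 and Siglec1 were 0 in control BM HSC 1. The summed level of the list was 206 FPKM in PHZ BM HSC 3 and 243 to 358 FPKM in the other 7 libraries, but Lyz2, a general myeloid gene, made up 181 of the 206 FPKM. Without Lyz2, a choice made after seeing the data, the sum was 25.0 FPKM in PHZ BM HSC 3, 11.4 to 23.4 FPKM in the other marrow libraries, and 46.0 and 70.4 FPKM in the spleen, so PHZ BM HSC 3 went from the lowest to the highest of the marrow libraries. The spleen libraries had the highest sum and Hmox1 at 7.25 and 5.76 FPKM. The part of macrophages in the Hmox1 value was not tested. The neutrophil sum given above was likewise highest within its group in PHZ BM HSC 3, where S100a8 and S100a9 made up 341 and 399 of the 1115 FPKM. Elane and Mpo were low there, at 2.67 and 0.294 FPKM, and were highest of all 8 libraries in PHZ BM HSC 2, at 18.6 and 12.0 FPKM. Ly6g was 0.657 FPKM in PHZ BM HSC 3, its lowest PHZ BM value. The rest of the list (S100a8, S100a9, Ngp, Camp, Ltf, Lcn2, Retnlg, Mmp8 and Prtn3) had its highest PHZ BM values there. Ngp was 71.3 FPKM, against 24.6 and 17.0 FPKM in PHZ BM HSC 1 and 2. Lcn2 was 12.6 FPKM, against 4.51 and 3.00 FPKM. Without S100a8 and S100a9, also a choice made after seeing the data, the sum was 375 FPKM in PHZ BM HSC 3, of which Prtn3 made up 214 FPKM, and 231 and 263 FPKM in the other PHZ BM libraries. The part of neutrophils in the Hmox1 value was not tested. None of the 9 macrophage genes tested was called by limma in the 3 comparisons, beside 2.74%, 0.758% and 0.978% of all genes. The unadjusted p was below 0.05 for 0, 2 and 3 of the 9, beside 16.6%, 15.8% and 13.5% of all genes. The other listed macrophage markers, among them Adgre1, Csf1r and Marco, were too low to be tested.

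The other genes of heme handling gave no call. Of 13 genes of heme transport and constitutive heme breakdown 10 were tested, and 0 were called by limma in each comparison, with no unadjusted p below 0.05 either. Groups did not overlap for 0, 2 and 3 of the 10, beside 23.9%, 28.9% and 34.8% of all genes. Among them was the heme exporter Flvcr1, at 0.692 to 1.004 FPKM in the controls, 0.461 to 1.23 FPKM in PHZ BM HSC, and 0.190 and 0 FPKM in PHZ SP HSC (11 and 0 reads), which was not called in PHZ SP HSC against control (log2 fold change -0.72 ± 0.33, limma adjusted p = 0.319). Hmox2, the constitutive heme oxygenase, was 29.5 to 40.1 FPKM in the controls, 35.1 to 38.9 FPKM in PHZ BM HSC, and 42.7 and 37.9 FPKM in PHZ SP HSC. It was above Hmox1 in every library except PHZ BM HSC 3. The lysosomal heme exporter Slc48a1 was the most abundant of this list, with group means of 80.0, 86.3 and 71.1 FPKM.

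Partners and regulators of NRF2 (14 genes, 13 tested) gave 0 limma calls in each comparison, with an unadjusted p below 0.05 for 6 in PHZ BM HSC against control, 2 in PHZ SP HSC against control and 4 between the PHZ groups, beside the 16.6%, 15.8% and 13.5% of all genes. Groups did not overlap in PHZ BM HSC against control for 7 of the 13, beside 23.9% of all genes, with Mafk, Maff, Nfe2, Sqstm1, Btrc and Atf4 higher and Gsk3b lower. In PHZ SP HSC against control 2 stood apart higher and 3 lower, beside 28.9% of all genes. Between the PHZ groups 0 stood apart higher and 7 lower in the spleen, beside 34.8% of all genes. Maff, a small MAF protein, had group means of 2.55 FPKM in PHZ BM HSC and 1.23 FPKM in the controls (log2 fold change 0.70 ± 0.29, limma adjusted p = 0.242). Nfe2, the erythroid and megakaryocytic relative of NRF2, had 84.6 and 66.3 FPKM (0.34 ± 0.13, limma adjusted p = 0.213). Gsk3b, a kinase that marks NRF2 for degradation, had 1.91 and 3.67 FPKM (-0.66 ± 0.25, limma adjusted p = 0.203). The repressor Bach1 was 1.46 to 3.28 FPKM in the controls, 2.27 to 2.62 FPKM in PHZ BM HSC and 2.52 and 3.40 FPKM in PHZ SP HSC, so the groups overlapped. Mafg, a small MAF partner, was 5.22 to 9.86 FPKM in the controls and 5.13 to 6.20 FPKM in PHZ BM HSC. Cul3, the ubiquitin ligase scaffold that KEAP1 uses, was 2.94 to 9.10 FPKM in the controls and 2.79 to 4.22 FPKM in PHZ BM HSC.

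Among 30 further NRF2 targets, 26 were tested, and 2 were called in PHZ BM HSC against control, beside 2.74% of all genes, in opposite directions. Gstm1, a glutathione transferase, rose from 70.3 to 105 FPKM in the controls to 131 to 186 FPKM in PHZ BM HSC (log2 fold change 0.91 ± 0.18, limma adjusted p = 0.0224). Prdx1, a peroxiredoxin that removes peroxides, fell from 73.1 to 80.3 FPKM to 41.0 to 56.1 FPKM (log2 fold change -0.71 ± 0.15, limma adjusted p = 0.0279). Each of these calls was lost in 2 of 10 other settings, and with 1 library left out Gstm1 was lost in 4 and Prdx1 in 5 of 8 fits. In PHZ SP HSC against control and against PHZ BM HSC 0 of the 26 were called by limma. The unadjusted p was below 0.05 for 7, 4 and 7 of the 26 in the order of comparisons above, beside 16.6%, 15.8% and 13.5% of all genes. In PHZ BM HSC against control 8 of the 26 had groups that did not overlap, 5 higher and 3 lower, beside 23.9% of all genes. In PHZ SP HSC against control 5 stood apart higher and 5 lower, beside 28.9% of all genes. Against PHZ BM HSC 6 stood apart higher and 4 lower in the spleen, beside 34.8% of all genes. The median log2 fold change of this list was 0.03, 0.07 and 0.10 in the order of comparisons above. The ferritin genes Fth1 and Ftl1, which store iron, were the most abundant, with Ftl1 at 629 to 639 FPKM in the controls, 759 to 861 FPKM in PHZ BM HSC and 620 and 571 FPKM in PHZ SP HSC. Ftl1 did not pass in PHZ BM HSC against control (log2 fold change 0.34 ± 0.09, limma adjusted p = 0.0821). Fth1 was 326 to 371 FPKM in the controls and reached 469 FPKM in PHZ BM HSC 3. Slc7a11, the cystine importer, stood at 0.398 FPKM (61 reads) in PHZ BM HSC 3 and at 0 to 0.178 FPKM elsewhere, and was too low to be tested.

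Of 22 peroxide, superoxide and thiol enzymes 21 were tested, and 1 was called in PHZ BM HSC against control, beside 2.74% of all genes. The gene called was Prdx4, the peroxiredoxin of the endoplasmic reticulum. It fell from 35.1, 41.5 and 46.3 FPKM in the controls to 20.9, 16.2 and 19.1 FPKM in PHZ BM HSC (log2 fold change -1.08 ± 0.17, limma adjusted p = 0.00639). Prdx4 measured 40.0 and 43.8 FPKM in PHZ SP HSC, within the control range, and higher than in PHZ BM HSC (log2 fold change 1.12 ± 0.19, limma adjusted p = 0.0212). That last call was lost in 1 of 10 other settings and in 4 of 8 fits with 1 library left out. The remaining 20 were not called in any comparison. The unadjusted p was below 0.05 for 7, 4 and 3 of the 21, beside 16.6%, 15.8% and 13.5% of all genes. In PHZ BM HSC against control 9 of them had groups that did not overlap, 2 higher and 7 lower, beside 23.9% of all genes. In PHZ SP HSC against control 3 stood apart higher and 3 lower, beside 28.9% of all genes. Against PHZ BM HSC 7 stood apart higher and 4 lower in the spleen, beside 34.8% of all genes. Txnip, which binds thioredoxin, had group means of 199.6, 271 and 227 FPKM (limma adjusted p = 0.108 in PHZ BM HSC against control). Gpx1, glutathione peroxidase 1, had group means of 524, 638 and 823 FPKM (limma adjusted p = 0.0708 in PHZ SP HSC against control).

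**Figure D4:**
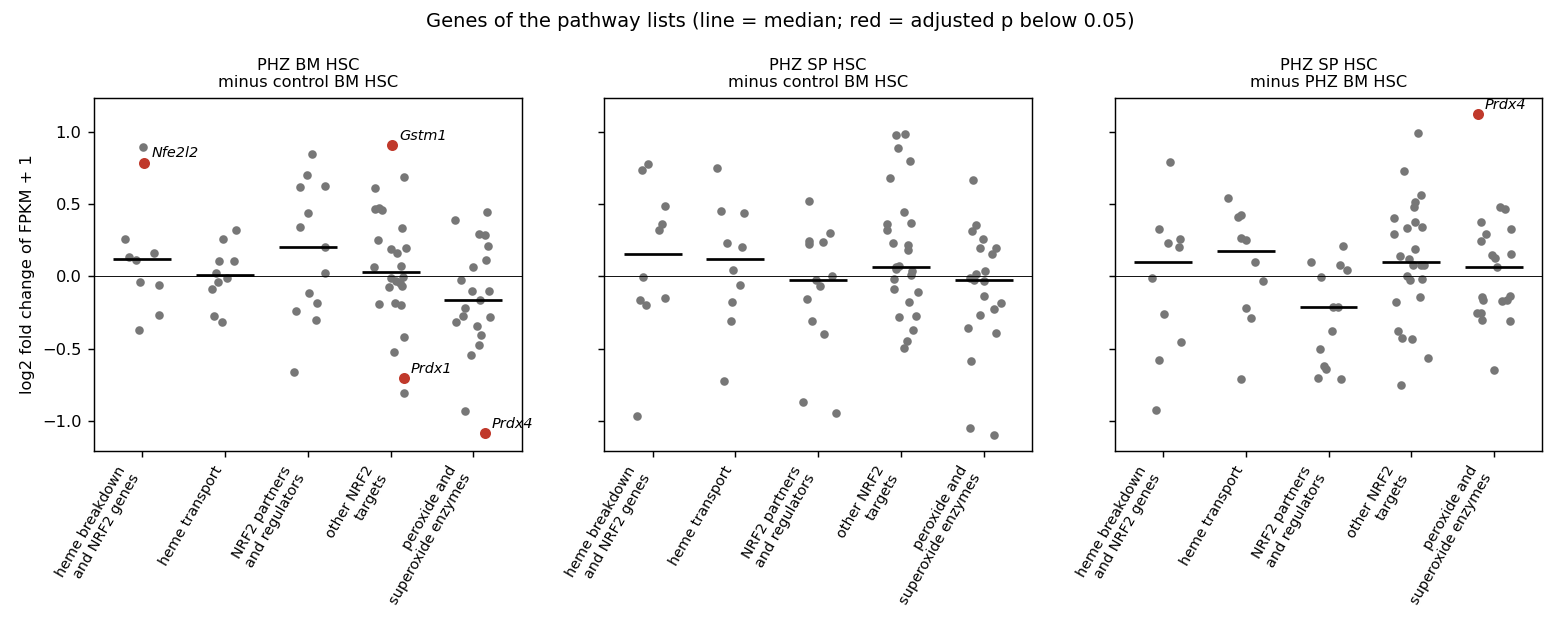
Log2 fold change of FPKM + 1 (vertical axis) for the genes of 5 lists in the 3 comparisons, with a point per tested gene, a line at the list median and red for adjusted p below 0.05. The red points are Nfe2l2, Gstm1, Prdx1 and Prdx4 in PHZ BM HSC against control BM HSC and Prdx4 in PHZ SP HSC against PHZ BM HSC.

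Some marker lists of other cells held calls, to be read beside 2.74% of all genes in PHZ BM HSC against control, 0.758% in PHZ SP HSC against control and 0.978% between the PHZ groups. Of 17 erythroid genes tested 7 were called in PHZ SP HSC against control, all higher (among them Slc4a1, Klf1, Ermap, Hba-a1, Hbb-bt and Tfrc), and against PHZ BM HSC 2 were (Slc4a1 and Hbb-bt). Of 12 neutrophil genes S100a8 and Retnlg were called higher in PHZ SP HSC against control, S100a8 against PHZ BM HSC, and Prtn3 in PHZ BM HSC against control. Of 12 T and natural killer cell genes 2 were tested. Klrb1c, a natural killer cell receptor, was called higher in PHZ SP HSC against both marrow groups, while Nkg7, with group means of 36.7 (control), 36.2 (PHZ BM HSC) and 27.4 FPKM (PHZ SP HSC), was not called in any comparison, and 0 of the 4 B cell genes tested were called by limma. Of the HSC markers, Gata2 was called higher in PHZ BM HSC against control. Of 14 immediate early genes tested 12 were called higher in PHZ BM HSC against control (Fos, Fosb, Jun, Junb, Jund, Egr1, Ier2, Ier3, Zfp36, Dusp1, Klf6 and Btg2), 5 of those 12 in PHZ SP HSC against control (Fos, Jun, Junb, Zfp36 and Klf6), and 8 were called lower in the spleen than in the PHZ marrow group (Fos, Fosb, Junb, Jund, Egr1, Ier2, Ier3 and Zfp36). The part of these cells and responses in the values of the heme and NRF2 genes was not tested.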

How the data were processed

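RNA was purified from sorted HSCs, and cDNA was amplified with SMART-Seq2 and made into Nextera XT libraries. The authors mapped reads to mm10 with STAR and deposited FPKM values in a table per group. The gene counter, annotation release and handling of strand are not given in the sources used here. The authors also deposited tables of their DESeq2 comparisons (fold changes and p-values), which were not used. HSCs were gated as lineage-negative, Sca-1+ c-kit+ cells with CD150 and little or no CD48, and the study's mice were 8 to 12 weeks old.

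Groups and replicate numbers came from the sample titles. The deposited FPKM tables did not share 1 set of scaling factors. Those of the PHZ tables matched median-of-ratios factors over the 5 PHZ libraries, and those of the control table matched factors over control and spleen libraries. Low values were whole multiples of a step particular to the gene, which gave back the reads, and all 110442 values above 0 came out whole within 0.01 read. In 1324 genes a single value was above 0, which fixes no step, and library totals are therefore approximate. Median-of-ratios factors computed once over 8 libraries replaced those of the tables, a shift of at most 1.05% per library. Genes with at least 1 FPKM in at least 2 libraries were tested with limma 3.58.1 (R 4.3.3, trend and robust options) on log2(FPKM + 1), in a fit of all 8 libraries with group as the factor, two-sided, and p-values were adjusted by Benjamini-Hochberg over all tested genes. The pseudocount of 1 FPKM understates fold changes of low genes. A count test had been planned for the case of deposited counts, and was not used on FPKM. limma voom on the recovered reads was an alternative. The code was tested on simulated data.

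Same-numbered libraries did not deviate together (r from -0.0079 to 0.060), and no pairing was used. With so few libraries a group, this r cannot show whether marrow and spleen cells came from the same mice. Without molecular identifiers, reads are not independent molecules. The members and gene lists were chosen with earlier results of these data known. All 10 members were named, together with every listed gene past the threshold, a fixed set of pathway genes whatever their values, and the 8 genes most like Hmox1. Values of some genes under this rule are not reported here. Maff, Mafk, Nfe2, Gsk3b, Btrc, Sqstm1, Atf4, Nfe2l1, Slc48a1, Hspb1, Mt2, Cdkn1a, Lyz2, Cd68, Cd5l, Marco, Adgre1, Csf1r, S100a9, Elane, Mpo, Ly6g, Nkg7 and Flvcr1 fall outside that rule and were chosen after their values were seen. The same holds for Ngp, Camp, Ltf, Lcn2, Mmp8, C1qb, C1qc, Slc40a1, Mrc1, Siglec1, Axl, Vcam1, Mertk and Car1.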

Additional observations from a re-analysis of the deposited data

How the results depend on the processing

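The call of Nfe2l2 in PHZ BM HSC against control BM HSC, the 1 call among the 10 genes, kept its direction in all 18 alternative fits and passed in 4 of the 10 that left out no single library. The count was 0 with a pseudocount of 0.1 FPKM (limma adjusted p = 0.05005), without a filter (0.0790), with scaling to totals without Rn45s (0.0604), in a fit of 2 groups (0.0641), without trend and robust options (0.103) and with a replicate block (0.0755), and 0 in each fit that left out 1 library. The cause was not tested. The median log2 fold change of the 10 genes ranged from -0.15 to 0.20 when 1 library was left out in PHZ BM HSC against control. For the spleen against control it was 0.065 with a pseudocount of 5 FPKM, 0.32 with a filter of 5 FPKM, which left out Gclc, and 0.25 with the replicate block, and -0.015 to 0.28 with 1 library left out. Between the PHZ groups it was 0.21 with the 5 FPKM filter and -0.16 to 0.21 with 1 library left out.

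The log2 fold changes that changed sign, none of them called, did so mostly when 1 library was left out, and the ranges here are over those fits. In PHZ BM HSC against control they ranged from -0.37 to 1.61 for Hmox1, from -0.45 to 0.26 for Nqo1, from -0.062 to 0.24 for Gclm, from -0.23 to 0.14 for Gclc and from -0.091 to 0.33 for Txnrd1. For the spleen against control they ranged from -0.23 to 0.79 for Hmox1, from -0.26 to 0.21 for Blvra, from -0.58 to 0.29 for Gclm, from -0.77 to 0.44 for Srxn1 and from -0.62 to 0.23 for Keap1. Between the PHZ groups they ranged from -1.29 to 0.68 for Hmox1, from -0.051 to 0.51 for Blvrb, from -0.69 to 0.18 for Gclm, from -0.40 to 0.81 for Srxn1 and from -0.10 to 0.085 for Nfe2l2. With the replicate block, Hmox1 and Blvra were 1.18 and 0.14 in PHZ SP HSC against control (limma adjusted p = 0.320 for Hmox1, against a log2 fold change of 0.32 without the block), and Hmox1 and Nfe2l2 were 0.29 and 0.0070 between the PHZ groups. The block moved the count of calls over all genes by less than 1.5 times, and the labels do not say whether the numbers pair the libraries.

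Prdx4 in PHZ BM HSC against control passed in all 18 alternatives, and between the PHZ groups in 9 of those 10 and 4 of 8 with 1 left out. Gstm1 and Prdx1 each passed in 8 of those 10 and in 4 and 3 of 8 with 1 left out. Over all genes the 311, 86 and 111 calls became 205, 46 and 62 without a filter. They became 204 (PHZ BM HSC against control) and 63 (between the PHZ groups) without trend and robust options. For the spleen against control they became 39 with a pseudocount of 0.1 FPKM and 44 in the fit of 2 groups, and between the PHZ groups 65 with voom. With 1 library left out they ranged from 114 to 306, 14 to 83 and 5 to 148. Where a spleen library was left out, the other was assumed to vary like the other groups. Gclc rested on 31 and 54 reads in the spleen, and 2 or 3 libraries a group limit what could be detected.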

Other observations

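Of the genes that stood highest in PHZ BM HSC 3 relative to PHZ BM HSC 1 and 2, the small heat shock protein gene Hspb1 was the only one above Hmox1. These genes were chosen after their values were seen, and no test was run on them. Hspb1 measured 38.0 FPKM in PHZ BM HSC 3 and 0 to 1.03 FPKM in the other 7 libraries. Mt2, a metallothionein that binds zinc and copper, ranked next after Hmox1, at 42.0 FPKM against 3.08 and 2.90 FPKM in the other PHZ BM libraries and 0.376 to 2.12 FPKM in the controls. Mt2 was also high in both spleen libraries (46.4 and 27.8 FPKM), where Hspb1 and Hmox1 were not. Cdkn1a, the cell cycle inhibitor p21, was 10.8 FPKM in PHZ BM HSC 3, 4.41 and 4.84 FPKM in the spleen and 0.401 to 2.11 FPKM in the other 5 libraries. Atf4, a transcription factor of the integrated stress response that can pair with NRF2, was 157 FPKM in PHZ BM HSC 3, 87.1 and 84.8 FPKM in the other PHZ BM libraries, 48.9 to 66.6 FPKM in the controls, and 68.2 and 68.0 FPKM in the spleen.

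Sqstm1, whose protein p62 competes with NRF2 for KEAP1, was 63.7, 65.1 and 62.6 FPKM in PHZ BM HSC and 37.6, 49.6 and 37.0 FPKM in the controls, without overlap, and did not pass the test (log2 fold change 0.62 ± 0.16, limma adjusted p = 0.0649). Mafk, a small MAF partner of NRF2, was 9.22, 8.92 and 10.5 FPKM in PHZ BM HSC and 5.82, 5.39 and 6.46 FPKM in the controls (log2 fold change 0.62 ± 0.22, limma adjusted p = 0.168). Nfe2l1, a relative of NRF2, had group means of 7.28 FPKM in the controls, 6.04 FPKM in PHZ BM HSC and 3.30 FPKM in PHZ SP HSC (limma adjusted p = 0.120 in PHZ SP HSC against control). The spleen libraries measured 54.1 and 44.0 FPKM for Sqstm1 and 4.61 and 7.17 FPKM for Mafk.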
